A study of Mus musculus with 6 samples.

Results

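The guidance molecules described here are the Eph receptors, their ephrin ligands, the semaphorins, and the plexins and neuropilins that bind semaphorins. Members were chosen by gene symbol: a probe set had to carry a single symbol in the platform annotation, starting with the name of one of these families. This gave 124 probe sets of 53 symbols, of 18194 symbols with a probe set on the array. The symbol Plxna4os1 names an antisense transcript of a plexin gene, so it was left out of the counts; its probe set lay at 1.11 to 9.71 in intensity and was too dim to be tested. Of the other 52 genes, 45 had at least 1 probe set bright enough to be tested.

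Eph receptors are membrane tyrosine kinases, and ephrins are ligands held on the surface of the neighbouring cell, so that signals pass in both directions at contacts between cells. Class A ephrins hang on a lipid anchor and class B ephrins cross the membrane, and receptors mostly bind ligands of their own class. Secreted class 3 semaphorins mostly act through a neuropilin together with a class A plexin, while membrane-bound semaphorins bind plexins directly. These families are known for keeping embryonic cell populations apart, for shaping somite borders and for steering axons and vessels.

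Cells came from heterozygous Noto-GFP mouse embryos on a mixed 129S3;ICR background at embryonic day 8.5, with a median of 6 somites. Noto is a homeobox gene of the node and notochord, the rod of mesoderm under the neural plate, and embryos of both groups carried the reporter. Tissue behind the boundary of the youngest somites was pooled from 23, 39 or 52 embryos of mixed sex and dissociated with trypsin. About 2600, 4300 and 6600 GFP-positive cells were sorted from the 3 pools, and were compared with the remaining GFP-negative cells, a mixture of the tissue's other cell types. Each pool therefore contributed an array of either sort, so that n = 3 arrays per group, except where arrays or pools were left out. P-values of the main fit measure the spread between the arrays of a sort and ignore the pairing by pool. Those of the blocked fit, described below, measure the spread of the differences within pools. RNA was amplified in both rounds of a labelling kit made for small samples.

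Values are array intensities on a linear scale; array medians were between 19.8 and 28.0, and a probe set near or under that level may hold mostly background. Log2 fold changes are GFP-positive minus GFP-negative differences of log2(intensity + 32), which understates the change of dim genes, with the standard error (SE) from limma. P-values were adjusted by Benjamini-Hochberg over all 12628 measured genes, with a threshold of 0.05. In the blocked fit the pool was added as a term, since both sorts of a pool came from the same embryos. Noto was not analysed here. Among 7 measured node and notochord markers 5 were higher and 0 lower in the GFP-positive arrays, with summed intensities of 6965 to 9594 against 182 to 582. In pool 1 the 3′ over 5′ ratio of the Gapdh control was 14.0 and 15.4, against 1.60 to 2.22 on the other 4 arrays. Marker sums of other cell types were lower in GFP-positive cells for endothelium (161 to 340.0 against 1287 to 1872; 4 of 5 measured markers called lower), primitive blood (331 to 5749.8 against 12122 to 28425; 1 of 6, and 6 in the blocked fit) and lateral mesoderm (309.6 to 499.6 against 1914 to 4451; 5 of 6). The neural plate sum was lower too (1010.0 to 1586 against 2436 to 2732), with 1 of 6 markers called lower, and 3 in the blocked fit. Nkx1-2, called in both fits, made up most of the sum on the GFP-negative arrays (1560.5 to 2097). Pax6 (-0.61) and Olig3 (-0.70) were called lower in the blocked fit alone. Sox1, Sox2 and Sox3 had -0.25, 0.20 and -0.08 and passed neither fit. Surface ectoderm sums overlapped (216 to 362 against 292 to 406), although 4 of 6 markers were called lower (Tfap2a, Dlx5, Trp63 and Gata3), because Perp (153 to 296 against 82.6 to 118) made up most of the GFP-positive sums. Sums were higher for presomitic and somite tissue (3700.1 to 3714 against 935 to 1212; 5 of 8 called higher) and gut endoderm (1327 to 2873 against 538 to 888; 3 of 6). Of the gut endoderm markers Hnf4a went the other way (9.86 to 15.4 against 18.2 to 87.1), with -0.85, and passed neither fit. The part of these cell types and of RNA quality in the results was not tested. In such mixtures fewer cells of a type and less RNA per cell cannot be told apart.

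Efnb2, Plxna2, Sema3b and Sema5a were higher in GFP-positive cells, and Epha5 and Sema3a were lower. The other 39 of the 45 measured genes did not pass. Sema3b and Sema4a reached the brightness filter on the GFP-positive arrays alone, so a positive difference was built into their selection, and the call of Sema3b supports nothing further. Among the 43 members that reached it in both groups, 3 were higher and 2 lower (6.98% and 4.65%), against 2.56% and 1.55% of the 12361 such genes. The 6 called genes are 8.89% higher and 4.44% lower of the members, where 2.95% of all measured genes were called higher, 1.71% lower and 4.66% either way. In the blocked fit 10 members were higher and 7 lower (22.2% and 15.6%), against 7.76% and 5.99% of all genes, or 13.8% either way. The 10 higher ones again include Sema3b. Log2 fold changes were above 0 for 26 of the 45 members, against 51.1% of all genes, and their median was 0.14, against 0.01 over all genes.

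All GFP-positive arrays lay above all GFP-negative arrays for 11 members, against 15.6% of all genes, and below them for 8, against 12.2%. Together 42.2% of the members had groups that did not overlap, against 27.7% of all genes. The difference was positive in all 3 pools for 17 members, against 28.4% of all genes, and negative in all 3 for 10, against 24.9%. That makes 27 of 45 with a single sign, against 53.3%. Sema3b is among the 11 and the 17, and Sema4a among the 17. For both genes a positive difference was built into their selection.

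**Figure D1:**
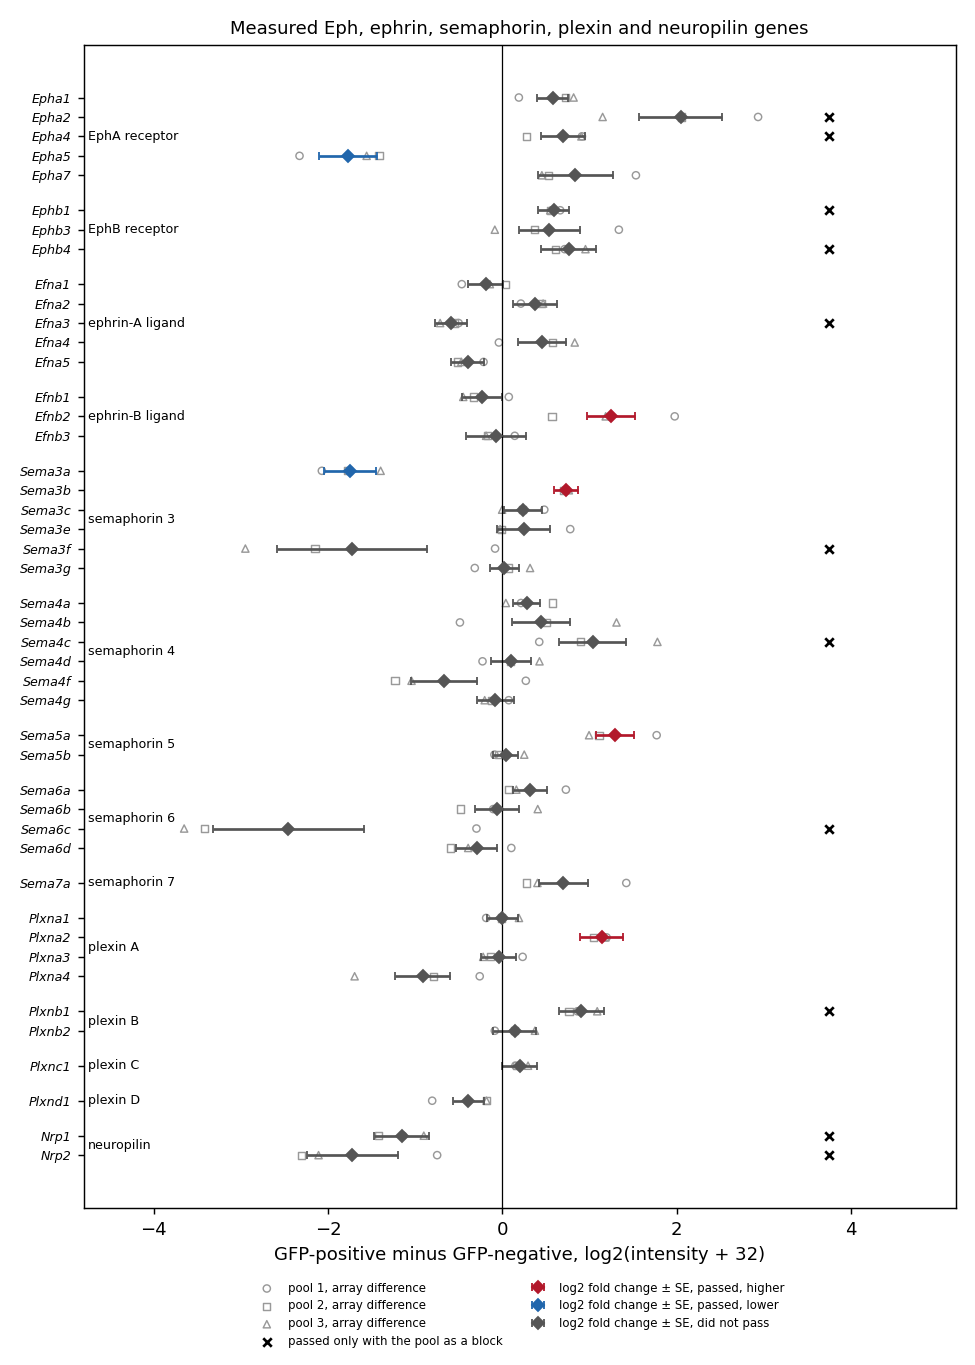
Log2 fold change (GFP-positive minus GFP-negative, log2(intensity + 32), horizontal axis) of the 45 measured genes, grouped by class. Diamonds with bars are the estimate ± SE from 3 arrays per group, open symbols the difference within each pool and crosses the genes that passed in the blocked fit only; the 6 coloured genes passed without the block, and estimates run from -2.45 for Sema6c to 2.05 for Epha2.

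The calls depended on which arrays entered. Without pool 2, and without GFP-positive array 2, GFP-positive array 3 or GFP-negative array 2, limma called 0 members, while between 7 and 11 were higher and between 2 and 6 lower at an unadjusted p under 0.05. Over all genes the same settings called between 5 and 107 higher and between 0 and 28 lower, and at an unadjusted p under 0.05 gave 4.88% to 8.44% higher and 3.24% to 6.91% lower. Without pool 3, Epha2 alone passed, at 2.49 (adjusted p = 0.0436). Sema3a, Sema3b and Sema5a passed without GFP-positive array 1, and Epha2, Epha5, Sema3a and Sema5a without GFP-negative array 3. Without pool 1, the pool with the high control ratios, 14 members were higher and 11 lower (31.1% and 24.4%), against 19.9% and 17.5% of all genes. Without GFP-negative array 1 alone, 6 were higher and 8 lower, against 11.0% and 10.9% of all genes. The log2 fold changes of the 6 called genes kept their sign in all of these.

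Among the Eph receptors, Epha5 fell in GFP-positive cells, and 7 of the 8 measured receptors had positive values. Of 5 measured class A receptors 1 was lower and 4 did not pass, with a median log2 fold change of 0.70. Of 3 measured class B receptors limma called 0 without the block, against 2 at an unadjusted p under 0.05 and 2 called in the blocked fit, with a median of 0.59.

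Epha5 is a receptor of class A ephrins, best known from axon maps in the brain. Its promoter is shown because it was the receptor called lower, beside that of Epha1, the class A receptor with the change nearest 0. Each runs from 250 bases before the annotated start to 50 after it (RefSeq, GRCm38.p6), at chr5:84417333-84417632 for Epha5 and chr6:42373219-42373518 for Epha1, both on the minus strand. Capitals mark GGGCGG on either strand, the letters of the GC box bound by SP factors.
Epha5: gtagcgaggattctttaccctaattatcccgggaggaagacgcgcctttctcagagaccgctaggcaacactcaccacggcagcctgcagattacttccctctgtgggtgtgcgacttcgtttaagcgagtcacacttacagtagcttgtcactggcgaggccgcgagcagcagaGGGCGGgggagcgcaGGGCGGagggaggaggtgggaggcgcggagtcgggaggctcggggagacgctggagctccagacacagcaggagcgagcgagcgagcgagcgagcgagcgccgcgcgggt
Epha1: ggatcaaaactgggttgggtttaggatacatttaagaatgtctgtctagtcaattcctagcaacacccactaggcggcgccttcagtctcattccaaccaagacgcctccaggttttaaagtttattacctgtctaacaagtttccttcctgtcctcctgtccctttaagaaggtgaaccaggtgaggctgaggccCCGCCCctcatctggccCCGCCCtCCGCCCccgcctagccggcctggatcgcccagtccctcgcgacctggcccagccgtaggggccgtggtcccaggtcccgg
The Epha5 window holds 2 matches and the Epha1 window 3. RefSeq promoters were matched for 39 of the 45 measured members, 53 promoters in all, and 79.2% of these held GGGCGG, against 35.7% of the 32851 promoters in the table. The members had passed the brightness filter, while the promoters in the table were taken without one, so the sets are unlike here and below. Whether promoters of these families differ from those of other measured genes was not tested. On both strands the forkhead letters TGTTNAC stood in 7.55% of the member promoters, those of Efna4, Ephb3, Sema3e and Sema4b, against 10.4% of all. The T-box letters AGGTGTNA stood in 3.77% (Ephb1 and Sema4a) against 3.03%, the GLI letters TGGGTGGTC in 0 against 0.253%, and the GATA letters AGATAA in 1.89% (Efna4) against 11.2%.

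Epha5 measured 44.3, 47.3 and 21.5 on GFP-positive arrays 1, 2 and 3, and 351, 179.7 and 126 on GFP-negative arrays 1, 2 and 3, the order used throughout. All GFP-negative arrays lay above all GFP-positive arrays, with GFP-negative array 1 the highest. Its log2 fold change was -1.77 ± 0.33 (limma adjusted p = 0.0260), with -2.33, -1.42 and -1.56 within pools 1, 2 and 3. Leaving out an array or a pool gave values from -2.05 to -1.41. Its other kept probe sets gave -1.46 (limma adjusted p = 0.0245 over probe sets) and -1.36 (adjusted p = 0.0594), so that 2 of the 3 passed and all were negative.

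Epha2, an epithelial receptor of class A ephrins, measured 265, 302 and 362 in GFP-positive cells and 6.83, 48.4 and 146 in GFP-negative cells. The groups did not overlap, and the GFP-negative arrays spread far more than the GFP-positive ones, with array 1 at background. A log2 fold change of 2.05 ± 0.48, the largest positive value among the members, missed the threshold (limma adjusted p = 0.0508) and passed in the blocked fit (adjusted p = 0.00777). Within pools it was 2.93, 2.05 and 1.15, and without pool 1 it was 1.60 (adjusted p = 0.00566).

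Epha4, which binds ephrins of both classes and takes part in somite border formation, measured 691, 438 and 479 in GFP-positive and 352, 356 and 240.2 in GFP-negative cells. The groups did not overlap, and the gap was narrowest in pool 2. At 0.70 ± 0.25 it passed in the blocked fit only (limma adjusted p = 0.150; blocked adjusted p = 0.0488). All 5 kept probe sets of Epha4 were positive, from 0.23 to 0.93.

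Epha1 and Epha7, with 0.58 and 0.84, passed neither fit. Epha1 was dim in GFP-negative cells, at 15.3 to 19.7, and Epha7 was highest on GFP-positive array 1. The other kept probe set of Epha7 had 1.26, and its groups did not overlap. It did not pass over probe sets without the block (limma adjusted p = 0.0852) but passed with it (blocked adjusted p = 0.0186). Epha3, Epha6, Epha8 and Epha10 were too dim to be tested, at 0.191 to 19.8 over all their probe sets.

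Ephb1, a class B receptor with roles in axon guidance, measured 123, 115 and 132 in GFP-positive and 66.0, 68.1 and 80.0 in GFP-negative cells. The arrays of each group were close together and the groups did not overlap. It had 0.59 ± 0.17 and passed in the blocked fit only (limma adjusted p = 0.0956; blocked adjusted p = 0.0472). Ephb4, the receptor of veins that pairs with Efnb2 on arteries, measured 46.7, 90.7 and 131 against 15.9, 48.4 and 51.9. GFP-positive array 1 lay within the GFP-negative range, yet within each pool the GFP-positive array was the higher. It had 0.76 ± 0.32 and also passed in the blocked fit only (limma adjusted p = 0.203; blocked adjusted p = 0.0260). Ephb3 had 0.54 and differed in sign between pools. Ephb6 was too dim to be tested, at 2.06 to 12.0.

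All 8 ephrins were measured; Efnb2 was higher and 7 did not pass. Their values were positive for 3 and negative for 5. Efnb2 is the transmembrane ligand of class B receptors and Epha4, known from arteries and somite borders. It measured 1590.1, 1198 and 1285 in GFP-positive and 379.7, 796 and 547 in GFP-negative cells. All GFP-positive arrays were above all GFP-negative arrays, and pool 2 had the smallest gap. A log2 fold change of 1.24 ± 0.28 was found (limma adjusted p = 0.0454), with 1.98, 0.57 and 1.19 within pools and 0.88 without pool 1 (adjusted p = 0.00547). Over probe sets this one did not pass (adjusted p = 0.0688), nor did the other, at 0.62 (adjusted p = 0.416). On that other probe set GFP-negative array 2, at 656, lay within the GFP-positive range of 600.3 to 691. With the mean over both probe sets Efnb2 had 0.93 and did not pass (limma adjusted p = 0.136). Efnb1 and Efnb3, the other class B ephrins, had -0.23 and -0.07 and passed neither fit.

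Class A ephrins lay between -0.59 and 0.45. Efna3 measured 39.6, 52.3 and 50.6 in GFP-positive and 69.3, 91.8 and 103 in GFP-negative cells. It was lower in the GFP-positive array of every pool, and the groups did not overlap. Its value of -0.59 ± 0.19 passed in the blocked fit only (limma adjusted p = 0.113; blocked adjusted p = 0.0479), while a second kept probe set of Efna3 was positive, at 0.35. Efna1, Efna2, Efna4 and Efna5 had -0.19, 0.38, 0.45 and -0.40, and none of these passed either fit.

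**Figure D2:**
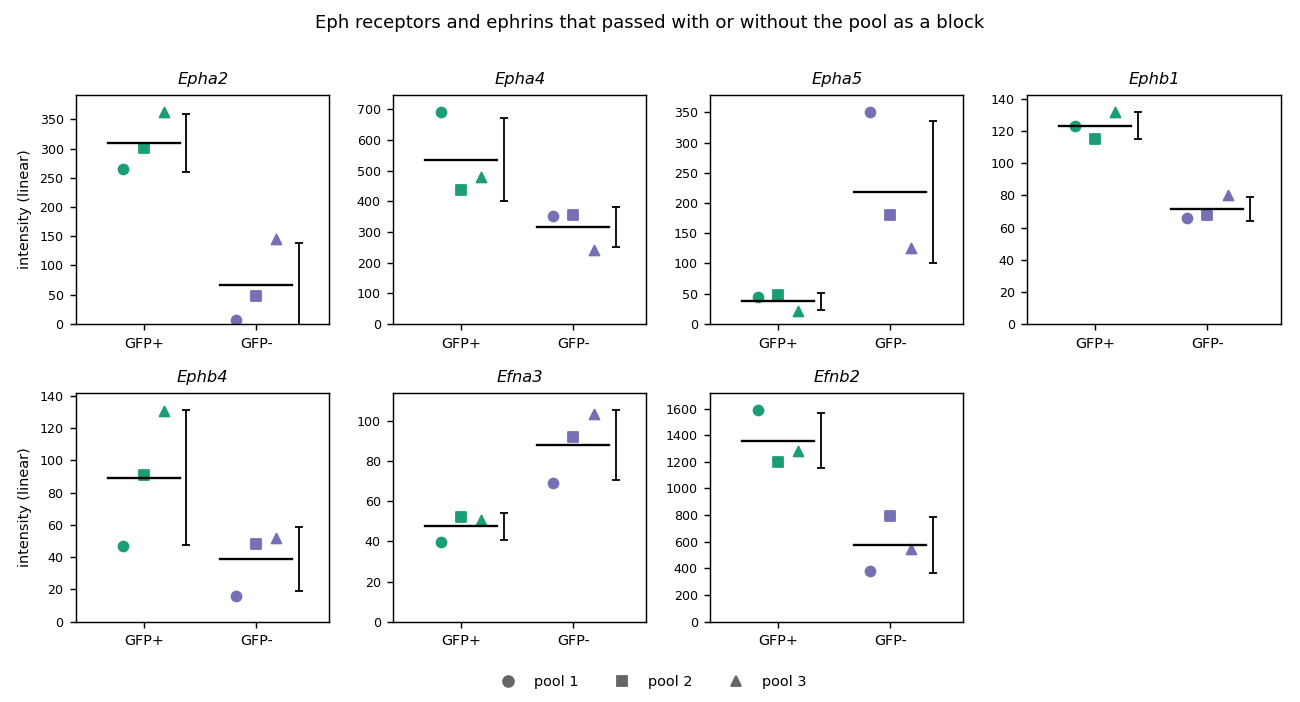
Intensity (linear axis from 0) on each array for the 7 Eph and ephrin genes that passed with or without the pool as a block; symbols show the pool, horizontal lines the mean and bars the SD over 3 arrays, and the bar of Epha2 in GFP-negative cells runs below the axis. Epha5 and Efna3 are lower in GFP-positive cells and the other 5 are higher, with overlap between groups for Ephb4 alone.

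Among the 19 measured semaphorins, Sema3b and Sema5a were higher, Sema3a was lower and 16 did not pass, with a median log2 fold change of 0.10. Of 6 measured class 3 genes 1 was higher and 1 lower, and of 2 class 5 genes 1 was higher. Limma called 0 of the 6 class 4, 4 class 6 and 1 class 7 genes without the block, where 1 gene in each class had an unadjusted p under 0.05. The blocked fit called 1, 1 and 0 of them.

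Sema5a is a transmembrane semaphorin with thrombospondin repeats that can attract or repel growing axons. Its promoter is shown as that of the called gene with the largest increase, beside that of Sema5b, the other gene of its class (RefSeq, GRCm38.p6; chr15:32244563-32244862 and chr16:35541112-35541411, both on the plus strand). Capitals mark GGGCGG on either strand, as for Epha5.
Sema5a: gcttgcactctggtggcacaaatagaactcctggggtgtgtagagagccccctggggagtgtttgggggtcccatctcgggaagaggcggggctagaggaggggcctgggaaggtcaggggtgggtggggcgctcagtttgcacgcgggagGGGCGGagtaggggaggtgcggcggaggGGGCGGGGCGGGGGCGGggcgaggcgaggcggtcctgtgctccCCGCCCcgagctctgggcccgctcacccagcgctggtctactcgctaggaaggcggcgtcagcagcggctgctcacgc
Sema5b: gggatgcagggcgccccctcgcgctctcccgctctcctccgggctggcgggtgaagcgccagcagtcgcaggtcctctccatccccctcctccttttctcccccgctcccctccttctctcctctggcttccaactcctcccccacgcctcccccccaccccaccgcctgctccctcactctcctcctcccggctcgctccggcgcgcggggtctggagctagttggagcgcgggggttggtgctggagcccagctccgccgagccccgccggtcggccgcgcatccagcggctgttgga
The Sema5a window holds 5 matches and the Sema5b window 0. Neither holds the forkhead, T-box, GLI or GATA letters.

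Sema5a measured 155, 149.9 and 137 in GFP-positive and 22.8, 52.3 and 52.8 in GFP-negative cells. The GFP-positive arrays were close to each other and all above the GFP-negative ones. Its log2 fold change was 1.29 ± 0.22 (limma adjusted p = 0.0186), with 1.77, 1.11 and 1.00 within pools and 1.05 without pool 1 (adjusted p = 0.00140). The other kept probe set had 0.91 and did not pass over probe sets (limma adjusted p = 0.0845). Sema5b had 0.04, at 12.5 to 22.3 in intensity, near the array medians.

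Sema3a is the secreted repellent that acts through Nrp1 and a class A plexin. It measured 54.0, 27.7 and 34.4 in GFP-positive and 329, 172 and 143 in GFP-negative cells. The groups were far apart, and array 1 was the highest in both. Its log2 fold change was -1.75 ± 0.30 (limma adjusted p = 0.0184), with -2.07, -1.77 and -1.40 within pools and -1.96 to -1.43 when an array or a pool was left out. A pair of further kept probe sets, which were dim, had -0.84 and -0.56 and did not pass over probe sets (limma adjusted p = 0.0605 and 0.0957). The one at -0.56 reached the brightness filter on the GFP-negative arrays alone, so its negative sign was built into its selection.

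Sema3b, also secreted, measured 25.8, 33.4 and 26.5 in GFP-positive and 3.22, 8.16 and 2.48 in GFP-negative cells. The GFP-positive values were no more than slightly above the array medians, and every GFP-negative value was under the level of the filter, which Sema3b therefore passed through the GFP-positive arrays alone. It had 0.73 ± 0.14 (limma adjusted p = 0.0273), with 0.72, 0.70 and 0.76 within pools. A second kept probe set had 0.13 (adjusted p over probe sets = 0.719). With the mean over both, Sema3b had 0.43 and did not pass (limma adjusted p = 0.109), and it was no longer tested with the brightness filter at the 60th percentile. Sema3c, Sema3e and Sema3g had 0.24, 0.25 and 0.02 and passed neither fit. The other kept probe sets of Sema3e had 0.67, 0.47 and 0.29, with groups that did not overlap. None of them passed over probe sets in either fit, and the last reached the filter on the GFP-positive arrays alone. Sema3d was too dim on too many arrays to be tested, at 1.49 to 45.2.

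Sema3f and Sema6c were bright on GFP-negative arrays 2 and 3 and not on GFP-negative array 1. Sema3f, a secreted ligand of Nrp2, measured 108, 161 and 279.5 in GFP-positive and 116, 824 and 2372 in GFP-negative cells. Pool 1 differed by -0.08, and pools 2 and 3 by -2.15 and -2.95. It had -1.73 ± 0.86 (limma adjusted p = 0.272; blocked adjusted p = 0.0474), on the 1 probe set of 3 that was bright enough, a type that may also bind related sequences. Sema6c, a transmembrane member of class 6, measured 25.3, 19.0 and 58.3 against 38.4, 512 and 1102. Here too the sorts were alike in pool 1 (-0.30) and apart in pools 2 and 3 (-3.41 and -3.65). It had -2.45 ± 0.86 (limma adjusted p = 0.144 and blocked adjusted p = 0.0323), and its other kept probe set had -0.85. That other probe set reached the brightness filter on the GFP-negative arrays alone, so a negative difference was built into its selection. Without GFP-negative array 1 both genes passed, at -2.82 for Sema3f (limma adjusted p = 0.00569) and -3.61 for Sema6c (adjusted p = 0.000986). Without GFP-negative array 3 they had -0.81 and -1.61 and did not pass (limma adjusted p = 0.602 and 0.328).

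For 5 of the 45 members, Nrp2, Plxna4, Sema3f, Sema4f and Sema6c, GFP-negative arrays 2 and 3 were each at least 2 times the highest of the other 4 arrays, as for 2.80% of all genes. For Nrp2 and Sema6c they were at least 4 times that value, as for 0.428% of all genes. This pattern and its limits were chosen after seeing the data, so the counts describe it and do not test it. The lateral mesoderm sum was also lower on GFP-negative array 1, at 1914, than on GFP-negative arrays 2 and 3, at 4451 and 4277. Tbx20 was the largest part of it, at 680, 2682 and 2104 on these arrays. Foxf1, Hand1, Hand2 and Gata6 were also lowest on array 1, while Prrx1 was highest there, at 367, 346 and 284. The primitive blood sum was 12122, 18503 and 28425 on the GFP-negative arrays. The part of these cell types and of the control ratios of pool 1 in the pattern was not tested.

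Sema4c, a membrane semaphorin that binds class B plexins, measured 876, 627 and 723 in GFP-positive and 644, 321 and 188 in GFP-negative cells. The groups overlapped through GFP-negative array 1, and within each pool the GFP-positive array was the higher. It had 1.03 ± 0.38 and passed in the blocked fit only (limma adjusted p = 0.159; blocked adjusted p = 0.0374), with 0.42, 0.90 and 1.78 within pools. It had 1.46 without GFP-negative array 1 (limma adjusted p = 0.00725) and 0.65 without GFP-negative array 3 (adjusted p = 0.373). The other class 4 genes lay between -0.67 (Sema4f) and 0.44 (Sema4b), and Sema6a, Sema6b and Sema6d had 0.32, -0.06 and -0.30. None of these passed either fit. Sema7a, the lipid-anchored semaphorin, measured 91.4, 74.0 and 90.5 against 14.0, 55.4 and 60.7. Its groups did not overlap, and at 0.70 ± 0.28 it passed neither fit (limma adjusted p = 0.182 and blocked adjusted p = 0.0915). Within pools Sema7a had 1.42, 0.28 and 0.40, and without pool 1 it had 0.34.

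Among the semaphorin receptors, Plxna2 was higher in GFP-positive cells, 7 of the 8 measured plexins did not pass, and both neuropilins had negative values. The plexins had a median log2 fold change of 0.07. Plxna2, a class A plexin that takes part in responses to class 3 and class 6 semaphorins, measured 355, 227 and 231 in GFP-positive and 137, 93.0 and 83.9 in GFP-negative cells. All GFP-positive arrays lay above all GFP-negative arrays, with array 1 the highest in both groups. Its log2 fold change was 1.14 ± 0.25 (limma adjusted p = 0.0422), with 1.20, 1.05 and 1.18 within pools. All 4 kept probe sets of Plxna2 were positive, from 0.58 to 1.72, and the last passed over probe sets (limma adjusted p = 0.0370).

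Plxna1 and Plxna3 had -0.00 and -0.04, and Plxna4 had -0.91; none of these passed either fit. Plxnb1, a receptor of class 4 semaphorins, measured 213, 325 and 352 in GFP-positive and 103, 178 and 149 in GFP-negative cells. The groups did not overlap, and array 1 was the lowest in both. It had 0.91 ± 0.26 and passed in the blocked fit only (limma adjusted p = 0.0901; blocked adjusted p = 0.0155). Plxnb2 had 0.14, and Plxnb3 was too dim to be tested, at 1.01 to 25.0.

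Plxnc1, the receptor of Sema7a, measured 50.9, 43.0 and 30.4 against 42.8, 35.1 and 18.8, and the groups overlapped. It had 0.20 ± 0.20 (limma adjusted p = 0.585), and its other kept probe set had -0.72. Plxnd1, a receptor of Sema3e on vessels, measured 10.4, 28.7 and 26.8 against 42.1, 36.9 and 34.7. Its groups did not overlap, at a level near the array medians, and at -0.39 ± 0.18 it passed neither fit (limma adjusted p = 0.247; blocked adjusted p = 0.186).

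Nrp1 and Nrp2 are the neuropilins, co-receptors that bind secreted class 3 semaphorins and VEGF. Limma called 0 of them without the block, where both had an unadjusted p under 0.05, and both were lower in the blocked fit. Nrp1 measured 338, 192 and 188 in GFP-positive and 782, 568 and 379 in GFP-negative cells. The groups did not overlap, and array 1 was the highest in both. It had -1.15 ± 0.32 (limma adjusted p = 0.0798; blocked adjusted p = 0.00809). All 4 kept probe sets of Nrp1 were negative, and 2 others, at -1.78 and -1.54, passed over probe sets (limma adjusted p = 0.00843 and 0.0124).

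Nrp2 measured 75.3, 130.2 and 129 in GFP-positive and 148, 771 and 663 in GFP-negative cells. The groups did not overlap, and GFP-negative array 1 was far under the other GFP-negative arrays. It had -1.72 ± 0.52 (limma adjusted p = 0.103; blocked adjusted p = 0.0128), and its 4 kept probe sets lay between -1.72 and -0.57. With genes taken as the mean over their kept probe sets, both neuropilins passed, at -1.39 for Nrp1 (limma adjusted p = 0.00926) and -1.13 for Nrp2 (adjusted p = 0.0250). In that fit 4 members were higher and 4 lower, against 3.42% and 1.84% of all genes. The higher ones were Epha2, Plxna2, Plxnb1 and Sema5a, so 2 are shared with the 4 called before, and Efnb2 and Sema3b are not among them. Of 5 measured endothelial markers 4 were lower, none was at 0, and the lowest value on a GFP-positive array was 6.02; their part in the neuropilin values was not tested.

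**Figure D3:**
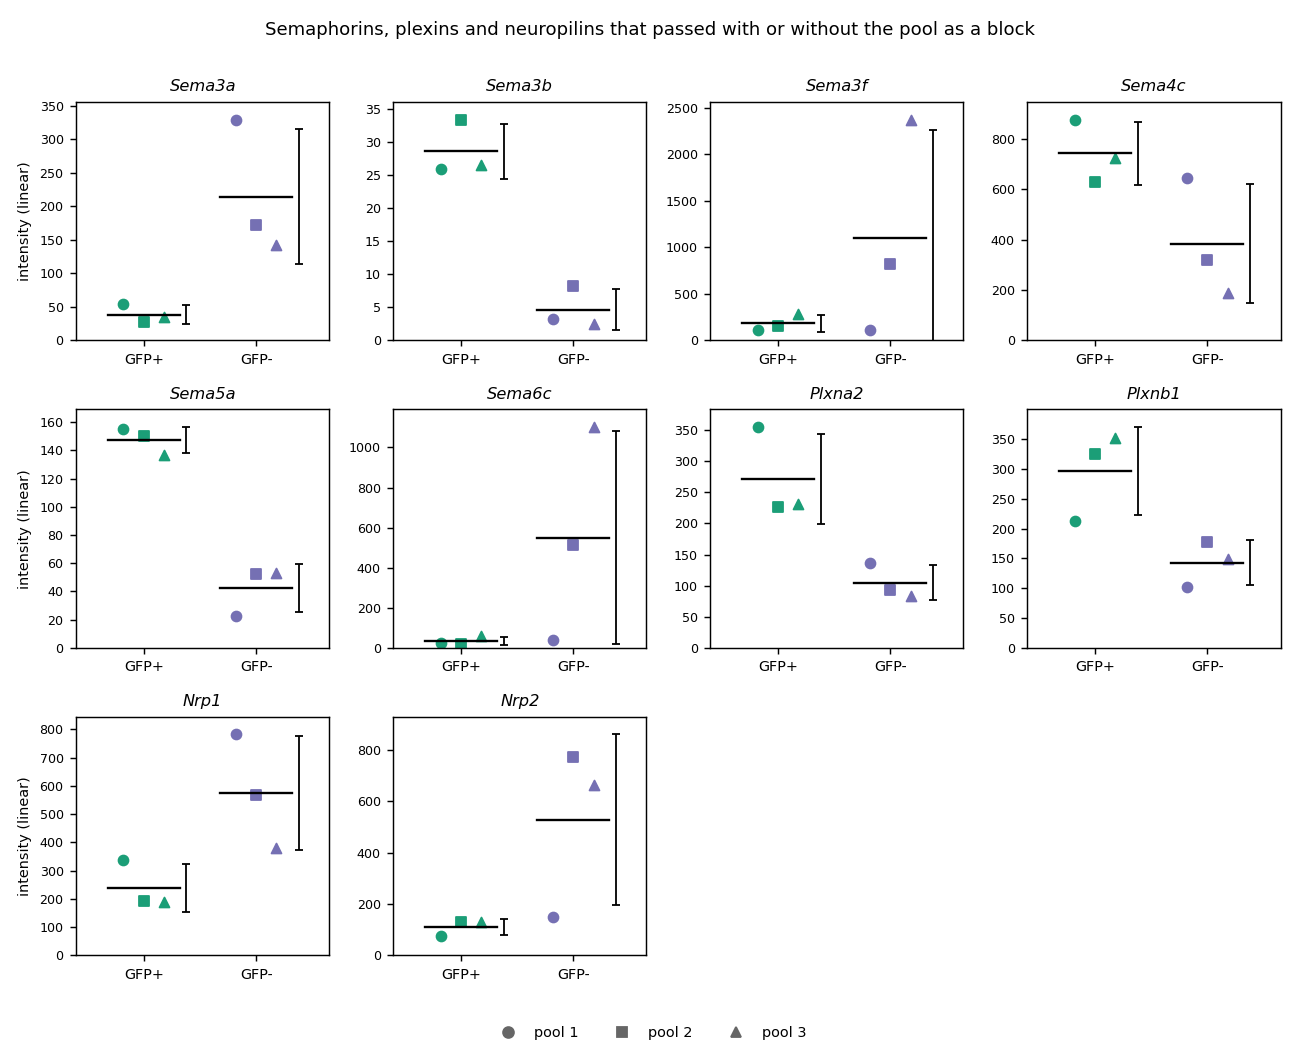
Intensity (linear axis from 0) on each array for the 10 semaphorin, plexin and neuropilin genes that passed with or without the pool as a block; symbols show the pool, horizontal lines the mean and bars the SD over 3 arrays, and the bar of Sema3f in GFP-negative cells runs below the axis. GFP-negative arrays 2 and 3 are high for Sema3f and Sema6c while GFP-negative array 1 is low, and the GFP-positive arrays of Sema5a lie within 137 to 155.

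Of the 82 kept probe sets of the members, 3 were higher and 5 lower with p adjusted over all 27821 kept probe sets, where 1.81% of all passed either way. The higher ones belong to Plxna2, Sema5a and Sema3b, and that of Sema3b reached the filter on the GFP-positive arrays alone. The lower ones belong to Epha5, Nrp1 and Sema3a, so Epha5 and Nrp1 are counted more than once. The blocked fit called 14 higher and 15 lower, where 9.86% of all passed. Of 23 genes with more than 1 kept probe set, Efna2, Efna3, Plxnc1 and Sema6d had a kept probe set whose sign opposed that of the probe set standing for the gene.

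**Figure D4:**
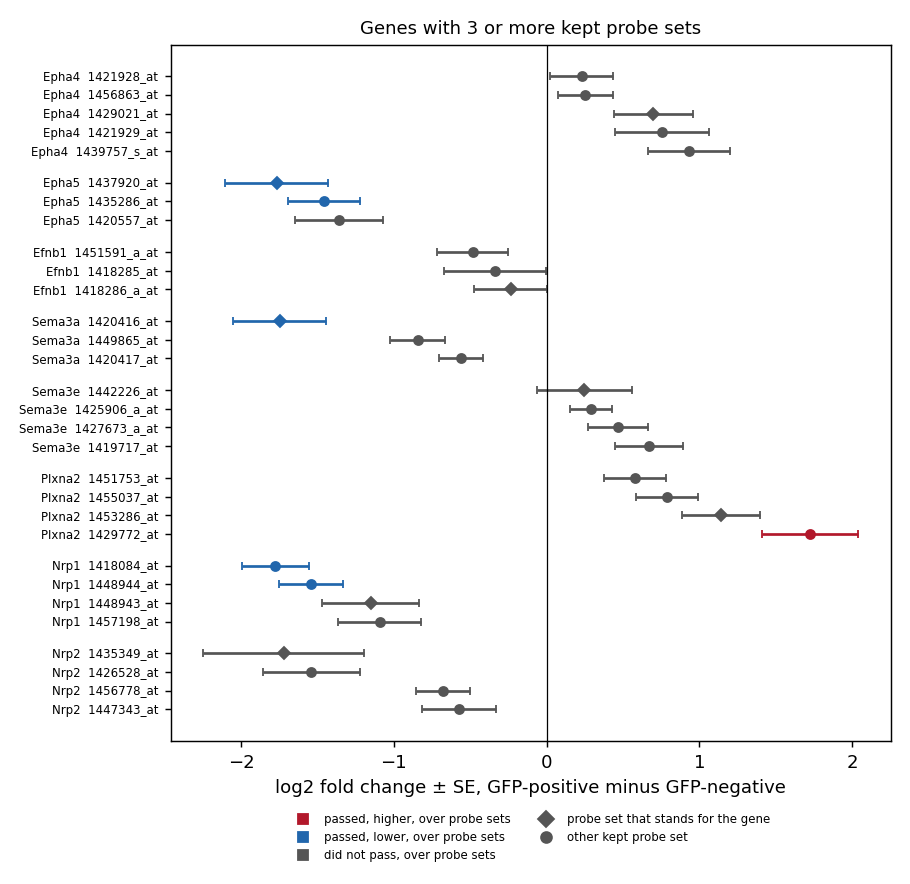
Log2 fold change ± SE (horizontal axis) of every kept probe set of the 8 member genes with 3 or more of them; diamonds stand for the gene, circles are its other probe sets, and colour shows which passed over all probe sets. Within each of the 8 genes the probe sets share a sign, and for Nrp1 the 2 that passed are not the one that stands for the gene. A Sema3a probe set (-0.56) and a Sema3e probe set (0.29) reached the filter in a single group, so their sign was built into their selection.

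Partners of these receptors were read from a list of co-receptors, ligands and effectors. Of 75 genes listed, 70 were measured, 1 was higher, 4 were lower and 65 did not pass, with a median of -0.01. These are 1.43% higher and 5.71% lower, against 2.95% and 1.71% of all genes. Chl1, an adhesion molecule of the L1 family that takes part in Sema3a responses, was the higher one. It measured 229.8, 101 and 96.6 in GFP-positive and 24.0, 7.76 and 16.4 in GFP-negative cells. The groups were well apart, and the GFP-negative arrays were near the array medians or under them. Its log2 fold change was 1.79 ± 0.30 (limma adjusted p = 0.0173).

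The lower partners were the VEGF receptors Kdr, Flt1 and Flt4, and Arhgef15, an exchange factor that acts downstream of Eph receptors. Kdr measured 52.7, 174 and 92.2 against 765, 1099 and 1059, with -2.94 ± 0.33 (limma adjusted p = 0.00384). Flt1, Flt4 and Arhgef15 had -1.22 ± 0.22, -0.93 ± 0.18 and -1.41 ± 0.33 (limma adjusted p = 0.0227, 0.0304 and 0.0494). Kdr and Flt1 are also in the endothelial marker list.

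In the blocked fit 6 partners were higher and 9 lower (8.57% and 12.9%), against 7.76% and 5.99% of all genes. Beside those above, the higher ones were the kinase Fyn (0.98), the receptor Met (0.96), the adaptor Nck2 (0.88), Pdzrn3 (0.69) and Rgs3, which binds class B ephrins (0.96). The lower ones were the kinases Gsk3b (-1.25), Rock1 (-1.34), Src (-0.66) and Yes1 (-0.77), and the scaffold Itsn2 (-0.75). Their blocked adjusted p lay between 0.0129 (Fyn) and 0.0457 (Pdzrn3), and without the block limma gave 0.0586 (Itsn2) to 0.404 (Src). Gsk3b measured 680.3, 1092 and 1096 in GFP-positive and 775, 3833 and 3832 in GFP-negative cells, so that GFP-negative array 1 stood with the GFP-positive arrays.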

How the data were processed

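The deposited table holds intensity values that the authors had scaled, as their equal trimmed means show; GCOS 1.4 is named in the submitters' processing notes, and a genome build is not given in the sources used here. Of 45101 probe sets, 64 were controls, 34945 carried 1 symbol, 932 several and 9160 none. Per-sample columns left out numbered 0.

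Probe sets at or above their array's 40th percentile on at least 3 of 6 arrays were kept. Values of log2(intensity + 32) were fitted in limma 3.58.1 (R 4.3.3; eBayes with trend) on group alone, and each gene was read from its brightest kept probe set. Array number limits precision. Same-numbered arrays share embryos according to the labels, which pairs them; correlations of their deviations from group means were 0.542, 0.286 and 0.436. Alternatives were other offsets, filters, normalization, gene summaries, the block and left-out arrays or pools, the last with kept probe sets held fixed. The fits were tested on simulated data. Python 3.11.15 drew the plots.

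Members and lists were chosen with earlier results of these data known. Array values are printed for members passing either fit and, in a class with none, the member of smallest p. Partners passing the unblocked fit are named, and 10 passing in the blocked fit alone were added after their values were seen. Promoters shown are those of the called members with the largest change either way, each with a gene of its class.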

Additional observations from a re-analysis of the deposited data

How the results depend on the processing

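Over 17 alternative fits, Sema3a and Sema5a passed in 12, Epha5 in 11, Plxna2 in 9 and Efnb2 in 8, and Sema3b in 8 of the 16 that tested it. The counts of 4 members higher and 2 lower became 10 and 7 with the replicate block, 2 higher with no filter, and 4 lower with the mean over probe sets. With an array or a pool left out they ranged from 0 to 14 higher and from 0 to 11 lower, while those of all genes ranged from 5 to 2511 and from 0 to 2213. For the partner list, whose alternatives were chosen after seeing the data, 1 higher and 4 lower became 6 and 9 with the replicate block. There were 2 higher with the mean over probe sets, 2 lower with no filter, and 0 to 14 higher and 0 to 18 lower with an array or a pool left out. Counting only genes that reached the filter level in both groups, chosen after seeing the data, gave 3 members higher and 2 lower. In the settings where limma called 0 partners higher, between 2 and 8 were higher at an unadjusted p under 0.05, and in the setting with 0 lower, without pool 2, 4 were lower. Of the 20 members with array values, Plxnc1 changed sign once, to -0.26 with the mean over probe sets, which takes in its negative probe set. The cause of the other shifts was not tested. Quantile normalization moved the median of all genes from 0.01 to 0.05. Sema3b, Plxnc1 and Plxnd1 lie near the array medians, where background limits a fold change.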
